A study of Homo sapiens with 18 samples.

Results

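The unperturbed transcriptome of hiF-T cells was described from the 4 control libraries of a knockdown series, with no test between conditions. A split by control guide and ranges in the knockdown libraries are given near the end, as descriptions. The members were chosen by label: the 4 libraries whose titles carry the word backbone, of 18 in all. hiF-T is a human line of fibroblast-like cells from BJ skin fibroblasts in which hTERT, the catalytic subunit of telomerase, is inducible. The controls are labelled wild type and received a control guide, with 2 guides and biological replicates 1 and 2 for each. The labels do not say whether those guides have a target, whether the hTERT inducer was present or whether the replicates were separate cultures. The other 14 libraries carried guides against CDKN1A (4 libraries), KDM1A (4) or SPP1 (6). Values for the control libraries are given in the order guide 1 replicate 1, guide 1 replicate 2, guide 2 replicate 1 and guide 2 replicate 2, or as mean ± SD (n = 4).

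Levels are in TPM, summed per gene. TPM gives the share of a transcript among all transcripts of a library after division by length, so the levels of different genes can be compared. A gene at a mean of at least 1 TPM is called expressed here. In bulk RNA, fewer cells of a type and less RNA per cell cannot be told apart.

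Dermal fibroblasts build and remodel connective tissue. They secrete fibrillar collagens, fibronectin and proteoglycans, cleave them with metalloproteinases, and pull on them through actin fibres that end at integrins. Cultured fibroblasts also keep a record of the body site they came from in their HOX genes, and they are a common starting cell for reprogramming to pluripotency with POU5F1, SOX2, KLF4 and MYC.

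The libraries held 15105986, 14765435, 15694395 and 13389477 estimated counts, and 12820 to 13143 genes per library reached 1 TPM. Transcripts with no gene in the annotation held 2.80 to 2.97% of TPM, so a gene's level can be a lower bound. Spearman's rho between libraries, across 12943 expressed genes, ran from 0.980 to 0.984. Mitochondrially encoded mRNAs held 4.35% of TPM in guide 1 replicate 1 and 5.53 to 5.73% in the other libraries. rRNA pseudogenes summed to 3038 TPM in guide 1 replicate 2 and to between 590 and 756 TPM in the others.

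By mean TPM, 12943 of 35579 genes were expressed, 11888 of them protein-coding, and 11864 reached 1 TPM in every library. The 10 genes nearest the threshold from above had 1.0001 to 1.0039 TPM and the 10 nearest from below 0.9948 to 0.9997 TPM. A mean of at least 10 TPM was reached by 8462 genes, at least 100 TPM by 1637 and at least 1000 TPM by 157. The 10 genes of highest mean TPM held 7.28% ± 0.0552 of TPM, the top 100 held 28.5% ± 0.476 and the top 1000 held 62.7% ± 0.695. Ribosomal proteins made up 46 of the 100 highest nuclear genes. Contractile and actin genes gave 11 more, matrix genes 6, translation factors 6, surface proteins 5 and glycolytic enzymes 4.

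**Figure D1:**
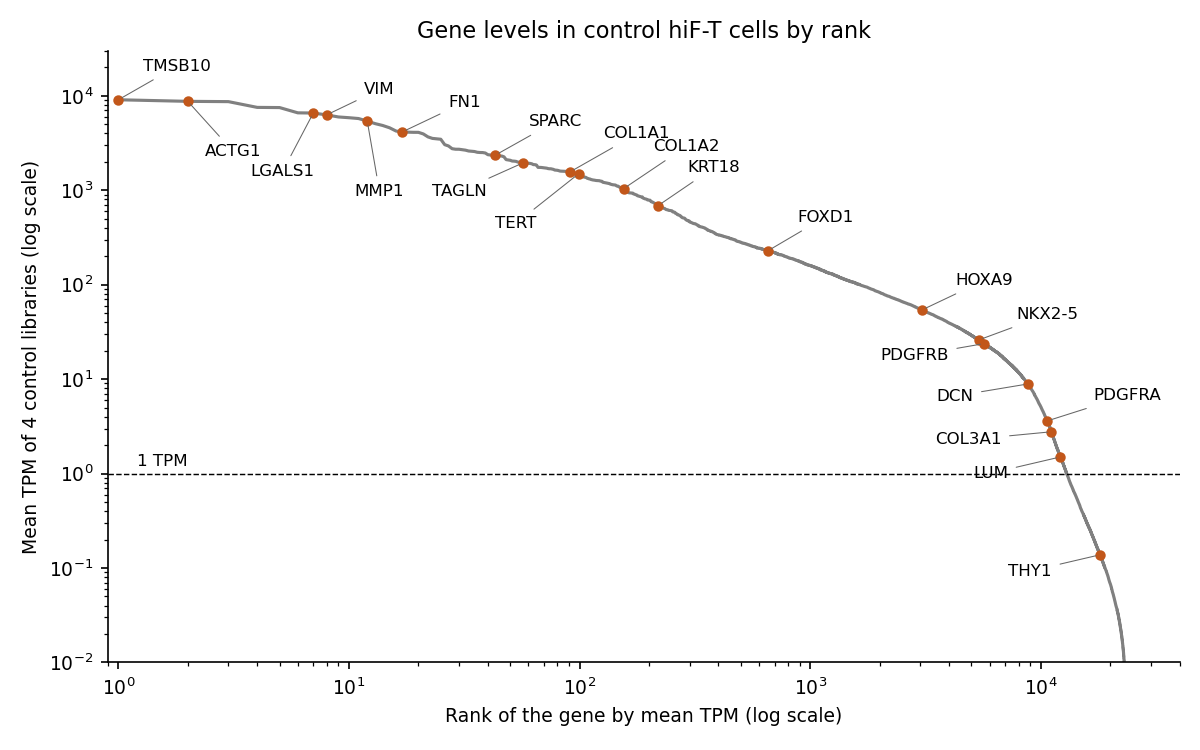
Mean TPM of each gene (log scale) against its rank by mean TPM (log scale) over the 4 control libraries, with selected genes marked in orange and the 1 TPM threshold dashed. TMSB10, ACTG1, LGALS1 and VIM lie among the 10 highest ranks, while DCN, PDGFRA, COL3A1 and LUM lie between 1 and 10 TPM and THY1 lies below 1 TPM.

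The top of the ranking belonged to the actin cytoskeleton. TMSB10, a thymosin that binds actin monomers, was the highest gene of all, at 10454, 8391, 8593 and 8889 TPM. The cytoplasmic gamma actin ACTG1 followed at 9142, 9145, 8519 and 8141 TPM, and the beta actin ACTB at 8713, 9121, 8544 and 8326 TPM. The ranges of the 3 genes overlapped, so their order did not exceed the spread between libraries. The actin genes share long stretches of sequence, and how reads were divided among them is uncertain. EEF1A1, the translation elongation factor that brings aminoacyl-tRNA to the ribosome, stood at 7507 ± 249 TPM and GAPDH, the glycolytic dehydrogenase, at 5862 ± 163 TPM. MT2A, a metallothionein that binds zinc, reached 4103 ± 165 TPM, and FTL and FTH1, the chains of the iron store ferritin, 3947 ± 183 and 2754 ± 123 TPM.

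The label was checked against COL1A1, VIM, TAGLN and THY1, and 3 of these 4 markers were high. COL1A1, the alpha 1 chain of type I collagen (chr17:50183289-50201632, GRCh38, minus strand), had 1543, 1716, 1604 and 1409 TPM. VIM, the intermediate filament of mesenchymal cells (chr10:17228259-17237593, plus strand), had 6029, 6388, 6267 and 6430 TPM. TAGLN, an actin-binding protein of contractile cells (chr11:117199321-117204782, plus strand), had 2033, 1714, 2093 and 1983 TPM. No control library was low for any of the 3, and the coefficient of variation was 2.87% for VIM and at most 8.55% for COL1A1 and TAGLN.

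THY1 went against the label. This GPI-anchored surface protein, CD90, is used to sort fibroblasts (chr11:119417378-119424985, minus strand), and it stood at 0.263, 0, 0.288 and 0 TPM. Its estimated counts were 0 to 3 per library, and a count of 0 allows up to 0.0893 to 0.105 TPM (3 counts over its longest transcript, counting error only). Across all 18 libraries of the series THY1 peaked at 1.19 TPM, in a CDKN1A knockdown library. PDPN, podoplanin, another surface protein of many fibroblasts, had 0.208, 0.189, 0.0431 and 1.30 TPM, a mean of 0.434 that rests mostly on guide 2 replicate 2. The libraries are therefore called fibroblast-like by COL1A1, VIM and TAGLN, without THY1. Other fibroblast genes, described below, went both ways. DCN (mean 8.89 TPM), COL3A1 (mean 2.77), PDGFRA (2.20 to 4.43) and LUM (1.08 to 2.05) were low, while FN1 and SPARC had means of 4139 and 2346 TPM.

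**Figure D2:**
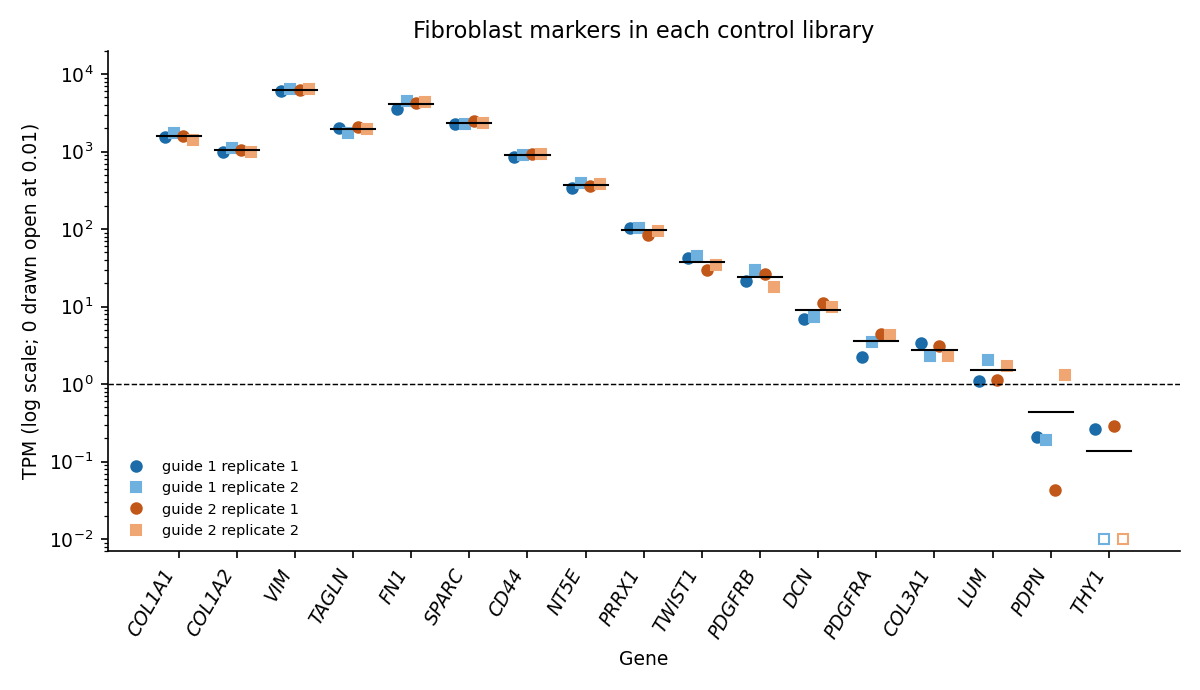
TPM (log scale) of 17 fibroblast genes in each control library, coloured by guide and shaped by replicate, with a black bar at the mean and open symbols for values of 0. COL1A1, VIM, TAGLN and FN1 lie above 1000 TPM in every library, and THY1 stays under 0.3 TPM.

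The programme was described by 17 lists, of fibroblast functions (matrix, contraction, surface, signals, transcription factors) and of general ones (cell cycle, glycolysis, translation, telomerase and pluripotency). Of their 462 genes, 353 (76.4%) reached 1 TPM, with a median of 32.8 TPM. Over all 19948 protein-coding genes 59.6% did, with a median of 4.24 TPM.

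The collagens were concentrated in a few chains. Of 43 chains 23 were expressed, 9 of them at 100 TPM or more, and COL22A1 was at 0 in every library. The partner chain of type I collagen, COL1A2, had 986, 1121, 1055 and 991 TPM. The microfibrillar type VI chains COL6A3, COL6A2 and COL6A1 followed at 868 ± 123, 833 ± 47.3 and 603 ± 38.8 TPM, and the ranges of COL6A3 and COL6A2 overlapped. The basement membrane chains COL4A2 and COL4A1, which lie head to head on chromosome 13, had 547 ± 44.2 and 334 ± 36.9 TPM. COL3A1, the fibrillar collagen that accompanies type I in skin, stood at only 3.41, 2.27, 3.07 and 2.32 TPM. COL3A1 was thus low in all 4 libraries beside COL1A1, COL1A2 and the type V chain COL5A1 (207 ± 22.7 TPM). COL4A1, COL4A2, COL3A1 and COL5A1 were picked out after their values were seen, as were the other genes here that fall outside the rule for named genes.

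The enzymes that fold and cross-link collagen were nearly all present, 21 of 23, with a median of 134 TPM. P4HB, the beta subunit of prolyl 4-hydroxylase, was the highest at 708, 710, 713 and 689 TPM. PPIB, a prolyl isomerase, and FKBP10, a collagen chaperone, had 635 ± 41.2 and 348 ± 11.5 TPM. The cross-linking oxidases LOX and LOXL2 had 414 ± 87.7 and 383 ± 9.61 TPM. LOX was higher in both guide 2 libraries (495 and 482 TPM) than in both guide 1 libraries (322 and 356 TPM), while LOXL2 varied by less. Such an order of the guides, in either direction, was common: it held for 38.1% of all 8462 genes at 10 TPM or more.

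Glycoproteins of the matrix held the largest part of matrix TPM, with 30 of 33 expressed and 14002 ± 546 TPM in sum. Fibronectin, FN1, had 3572, 4452, 4207 and 4327 TPM, and SPARC, a collagen-binding matricellular protein, had 2283, 2252, 2490 and 2360 TPM. The FN1 range lay wholly above that of SPARC. TGFBI, a TGF-beta-induced adhesion protein, had 1581 ± 153 TPM, IGFBP7, an insulin-like growth factor binding protein, 1178 ± 77.3 TPM, and CCN2, a connective tissue growth factor, 960 ± 107 TPM. Elastin, ELN, stood at 2.53, 3.87, 1.92 and 2.71 TPM, although FBN1, the fibrillin on which elastin is laid down, was found at 462 TPM. All 162 genes of the 6 matrix lists together held 4.02% ± 0.127 of TPM, with 118 expressed.

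The proteoglycans differed in the same way. SRGN, serglycin, the core protein of secretory granules, led with 688, 631, 697 and 742 TPM, ahead of BGN, biglycan, at 277 ± 18.8 TPM. The cell-surface heparan sulfate proteoglycans GPC1 and SDC2 had 220 ± 18.5 and 125 ± 9.12 TPM, and AGRN, agrin, 161 ± 18.3 TPM. Decorin and lumican, the small leucine-rich proteoglycans that bind collagen fibrils in dermis, were low. DCN had 7.0, 7.37, 11.2 and 10 TPM, and LUM had 1.08, 2.05, 1.14 and 1.73 TPM. Of 24 genes 16 were expressed. Among 13 laminins and nidogens, 10 were expressed. LAMC1, LAMB2 and LAMB1, chains of the basement membrane laminins, led at 205 ± 14.9, 159 ± 6.40 and 147 ± 15.9 TPM, ahead of NID1 and NID2, nidogens that link laminin to type IV collagen, at 45.2 ± 2.25 and 29.9 ± 2.64 TPM.

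The matrix proteases were led by 1 enzyme. MMP1, interstitial collagenase, which cuts triple-helical collagen, had 4884, 4995, 5726 and 5980 TPM and ranked 12 among all genes. Both guide 2 libraries lay above both guide 1 libraries, where 38.1% of genes at 10 TPM or more had no overlap between guides in either direction. SERPINE2, the lysosomal protease CTSB and the metalloproteinase inhibitor TIMP1 had 717 ± 29.3, 543 ± 1.77 and 371 ± 8.29 TPM. Other collagenases were near 0, with MMP13 at 0.201 and MMP8 at 0.151 TPM, and MMP9, a gelatinase, was at 0.0129 TPM. In all 18 of 26 proteases and inhibitors were expressed.

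Contractile and actin genes held 5.59% ± 0.215 of TPM, more than the matrix lists together on this per-length scale. By share of estimated counts, which favours long transcripts, the order was the opposite, with 4.74% for contractile and 8.42% for matrix genes. Of the contractile genes 31 of 35 were expressed, 28 of them at 100 TPM or more. MYL6, a myosin light chain, and PFN1, profilin, an actin monomer carrier, had 3672 ± 265 and 2717 ± 162 TPM. The tropomyosins TPM4, TPM1 and TPM2, which coil along actin filaments, had 1688 ± 172, 1587 ± 161 and 1579 ± 175 TPM, with overlapping ranges. ACTA2, the smooth muscle actin of myofibroblasts, stood at 93.8, 94.5, 161 and 152 TPM, higher in both guide 2 libraries. Genes of differentiated smooth muscle were mixed: CNN1 had 11.8 TPM, LMOD1 0.468, MYH11 0.303 and DES 0.182, whereas SMTN and ACTG2, described with the other lineages, were above 100 TPM.

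Of 7 intermediate filament genes of mesenchyme, 6 were expressed. LMNA, the nuclear lamin of stiff tissues, followed VIM at 1358 ± 97.0 TPM, well above the B-type lamins LMNB2 (152 ± 12.2 TPM) and LMNB1 (71.9 ± 5.34 TPM), and the linker PLEC, plectin, had 223 ± 28.0 TPM. Of 29 surface proteins 27 were expressed. LGALS1, galectin 1, a secreted lectin that binds cell-surface glycans, had 7700, 6273, 6428 and 5873 TPM. ANXA2, a membrane-binding annexin, and S100A6, a calcium-binding protein, had 3507 ± 140 and 3039 ± 390 TPM. ITGB1, the beta 1 integrin chain of collagen and fibronectin receptors, had 1375, 1511, 1594 and 1656 TPM, and CD63, a tetraspanin, had 1497 ± 141 TPM. The receptor tyrosine kinases of the PDGF family were lower: PDGFRB had 21.2, 29.6, 26.5 and 17.8 TPM and PDGFRA 2.20, 3.53, 4.43 and 4.27 TPM. The PDGFRB range lay wholly above that of PDGFRA.

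Mesenchymal transcription factors were expressed at modest levels, 34 of 44, with 2 above 100 TPM. FOXD1, a forkhead factor of limb and kidney stroma, led at 242, 248, 217 and 206 TPM. KLF6, a zinc-finger factor, had 140 ± 15.4 TPM, FOXC2, a forkhead factor of mesoderm, 98.8 ± 7.02, PRRX1, a homeobox factor of limb mesenchyme, 96.3 ± 9.44, and YAP1, the co-activator that responds to stiffness, 84.6 ± 3.60. MEOX1, MSX2 and TBX5 were at 0 in every library.

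The HOX genes showed a pattern by cluster and by position. These homeobox genes lie in 4 clusters, and genes of higher number are used toward the far end of the body axis and limb. In HOXA on chromosome 7, 10 of 11 genes were expressed (all but HOXA13), with 126 ± 8.97 TPM in sum, and in HOXD on chromosome 2, 7 of 9 genes with 146 ± 5.96 TPM. In HOXB on chromosome 17 only HOXB2 and HOXB3 were expressed among 10 genes (29.3 ± 4.01 TPM in sum, 5 genes at 0), and in HOXC on chromosome 12 only HOXC9 among 9 (3.22 ± 1.19 TPM in sum).

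HOXA9 was the highest HOX gene, at 50.6, 53.7, 58.4 and 53.1 TPM, followed by HOXD10 at 42.6, 45.3, 45.0 and 44.8 TPM. HOXD11 had 36.6 ± 3.11 TPM, HOXD8 28.6 ± 1.22, HOXB2 26.5 ± 3.17 and HOXA10 24.7 ± 2.57. HOXA9 lay above HOXD10 in every library, and HOXD8, HOXB2 and HOXA10 overlapped. In the group 13 genes, HOXD13 was found at 5.09, 4.66, 3.97 and 4.15 TPM and HOXA13 at 0, 0, 0.0210 and 0 TPM. The 13 other expressed HOX genes had 1.95 to 15.3 TPM, with HOXA11, HOXD9 and HOXD3 above 10 TPM. HOXB4, HOXB5, HOXB6, HOXB8, HOXB9, HOXC4, HOXC5 and HOXC12 were at 0 in all 4 libraries.

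**Figure D3:**
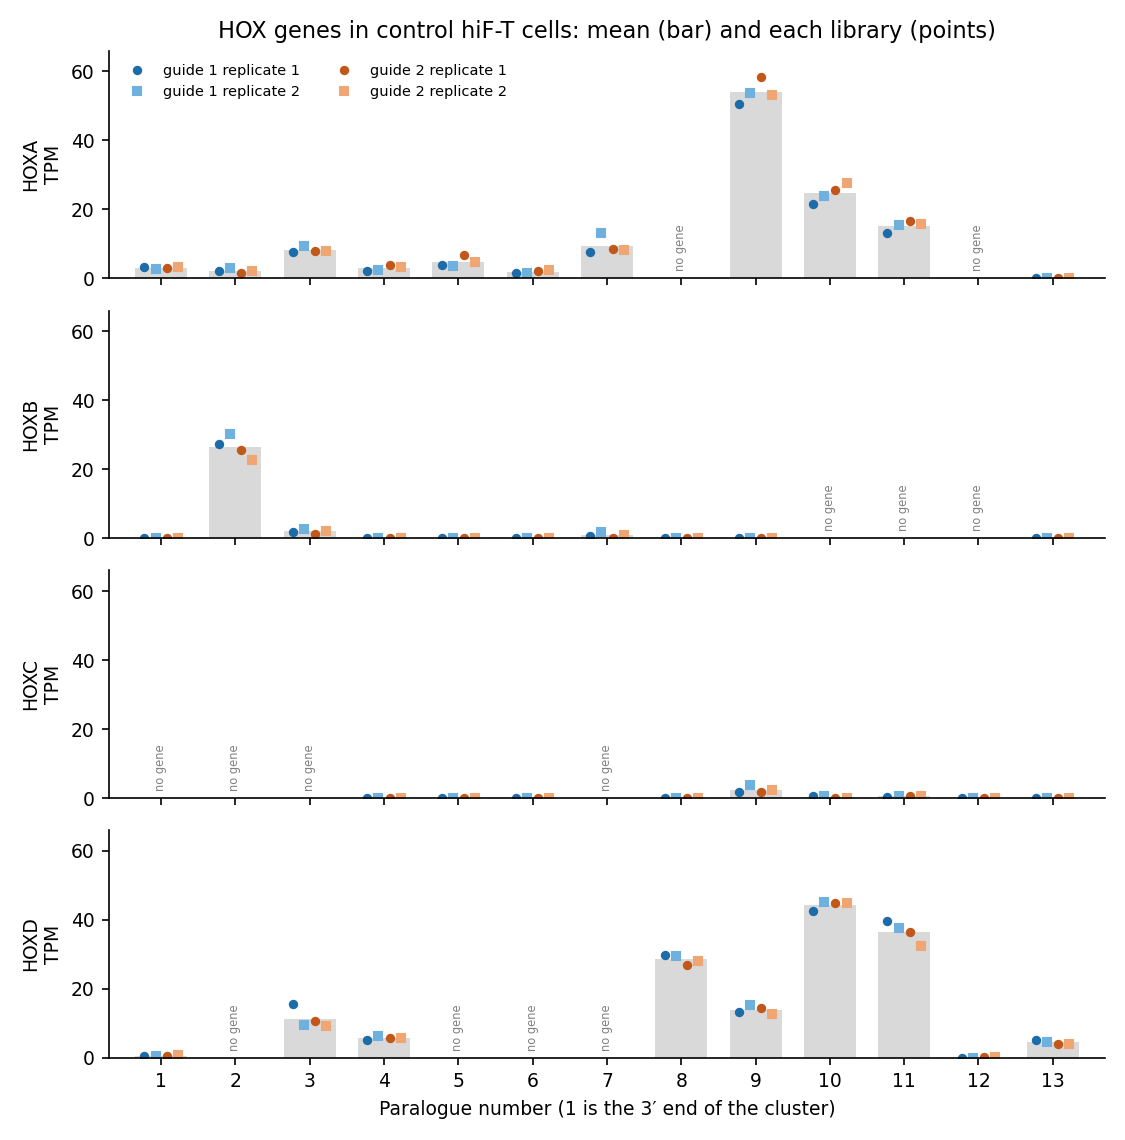
TPM of the HOX genes of each cluster by paralogue number, with grey bars at the mean of 4 control libraries and points for each library. Levels peak at numbers 9 to 11 in HOXA and 8 to 11 in HOXD, whereas HOXB has 1 peak at HOXB2 and HOXC has no gene above 4 TPM in any library.

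Among ligands and inhibitors of the TGF-beta, BMP and WNT pathways, 19 of 26 were expressed. DKK3, a member of the dickkopf family, had 233 ± 8.49 TPM. DKK1, which blocks WNT co-receptors, had 332, 285, 153 and 140 TPM, so both guide 1 libraries were higher. INHBA, the activin A subunit, GDF15, a stress-induced cytokine, and WNT5B had 219 ± 20.8, 199 ± 13.5 and 195 ± 7.49 TPM. BMP2 and BMP4 were below 1 TPM (0.331 and 0.123), and SFRP2 and SFRP4, secreted WNT inhibitors, were at 0. Of 34 growth factors and cytokines 23 were expressed. CXCL12, the chemokine for CXCR4, led at 570, 629, 602 and 631 TPM, ahead of FGF5 (159 ± 17), VEGFC (149 ± 9.68), EDN1, endothelin (104 ± 5.95), and FGF2 (103 ± 15.5). IL6 and CXCL8, inflammatory cytokines of the senescent secretome, had 4.02 and 5.47 TPM, and HGF, FGF7 and IGF1 were below 1 TPM.

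Cell cycle genes were expressed in 28 of 29 cases, with a median of 66.8 TPM. CCND1, the cyclin that drives entry from G1, had 1403, 1467, 1676 and 1449 TPM, while its relative CCND2 had 0.0420 TPM. CDKN1A, the p21 inhibitor targeted elsewhere in the series, had 550, 545, 487 and 447 TPM. The replication factors PCNA and MCM7 had 242 ± 13.4 and 164 ± 4.14 TPM, and the mitotic cyclin CCNB1 had 209 ± 7.63 TPM. CDKN2A, the locus of p16 and ARF, had 45.2 ± 5.32 TPM, and its leading transcript was not the same in all libraries.

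TERT stood far above the other telomerase and pluripotency genes. This gene (chr5:1253147-1295069, minus strand) had 1468, 1640, 1521 and 1351 TPM, rank 99 among all genes, on 32684 to 42169 estimated counts per library. It lay between 1066 and 1655 TPM over all 18 libraries. Counts from a transgene and from the genomic locus cannot be told apart in these tables. DKC1, the dyskerin subunit of telomerase, had 80.4 ± 2.42 TPM, and TERF2 and TERF1, proteins of the telomere cap, had 39.8 ± 6.39 and 18.8 ± 4.24 TPM.

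Of the 4 reprogramming factors, MYC, the growth regulator, was the highest, with 82.9, 86.3, 83.9 and 71.5 TPM. KLF4 had 9.32, 8.43, 7.86 and 8.56 TPM, POU5F1 (OCT4) 4.70, 1.49, 4.38 and 4.01 TPM, and SOX2 1.85, 2.26, 2.41 and 1.55 TPM. POU5F1 has near-identical pseudogenes, and its leading transcript held 0 to 64.4% of the gene among libraries, so its level is uncertain. NANOG, a factor of the pluripotent state, was below the threshold at 0.175, 0.525, 0.277 and 0.255 TPM. LIN28A, ZFP42 and TDGF1 were each below 1 TPM (0.269, 0.469 and 0.419), and UTF1 and DPPA2 were at 0. SALL4 and DNMT3B had 1.97 ± 0.514 and 1.71 ± 0.262 TPM.

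All 20 glycolysis genes were expressed. PKM, pyruvate kinase, ENO1, enolase, and LDHA, lactate dehydrogenase, had 2346 ± 191, 2111 ± 48.1 and 1971 ± 96.0 TPM, ahead of the aldolase ALDOA at 1039 ± 45.6 TPM. All 18 translation factors were expressed too, among them TPT1, NPM1, RACK1 and EIF5A at 2524 ± 143, 2259 ± 114, 1724 ± 59.2 and 1314 ± 57.5 TPM. The 87 ribosomal protein genes held 12.3% ± 0.856 of TPM, with RPL37A, RPL41 and RPS2 at 4584 ± 331, 4122 ± 384 and 2944 ± 147 TPM. By share of estimated counts these short genes held 3.75%. These genes have many processed pseudogenes that can share their reads. The 13 mitochondrial mRNAs held 5.31% ± 0.640, of which MT-ATP8 (7539 ± 854 TPM) and MT-CO1 (6602 ± 630 TPM) were the highest. By share of estimated counts the mitochondrial mRNAs held 2.14%.

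Markers of other lineages were mostly absent. Of 220 genes in 16 lists, 42 (19.1%) reached 1 TPM, with a median of 0.0987 TPM, and 45 were at 0 in every library. No member of the erythroid and platelet list (0 of 12; summed level 1.04 to 1.29 TPM) or of the kidney and lung list (0 of 13; 0.243 to 2.07 TPM) was expressed. GATA1 and HBB, UMOD and SFTPC were at 0. Leukocytes had 1 of 18 (67.2 to 89.9 TPM in sum, with CD3E and CD2 at 0), and without CD68 the highest member was CSF1R, a macrophage receptor, at 0.770 TPM. CD68, a lysosomal protein also used as a macrophage marker, had 68.2, 86.5, 73.5 and 63.8 TPM, and PTPRC, the pan-leukocyte marker, had 0.395 TPM.

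Of the cell types that skin could contribute, keratinocytes had 3 of 14 markers (152 to 177 TPM in sum). KRT5 and KRT1 were at 0, while KRT10, a keratin of differentiated epidermis, had 166, 160, 150 and 143 TPM. The short transcript KRT10-202, with 321 coding bases, held 89.5% ± 1.17 of KRT10, and the full-length KRT10-201, with 1752 coding bases, held 10.5%. KRT15 had 5.18 ± 0.824 TPM. Melanocytes had 2 of 10 (8.43 to 10.9 TPM in sum), KIT at 6.21 ± 1.86 TPM and MITF at 1.62 ± 0.594. Endothelium had 4 of 12 (34.1 to 41.3 TPM in sum), with PECAM1 at 0.224, CDH5 at 0.0413, VWF at 0.0454 and PLVAP at 0. TEK, the angiopoietin receptor, was the exception at 28.4, 32.9, 29.8 and 27.7 TPM, and EMCN had 1.80 ± 0.813 TPM.

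Simple epithelium had 7 of 14 markers (766 to 830 TPM in sum). KRT18 had 654, 657, 717 and 724 TPM and its partner KRT8 had 88.8, 91.3, 90.5 and 89.1 TPM, although EPCAM, an epithelial adhesion protein, was at 0.628 and CDH1, E-cadherin, at 1.51 TPM. Both keratins have processed pseudogenes. KRT18-201 held 97.3% ± 1.06 of KRT18. In the list for smooth muscle and pericytes, 8 of 13 genes were expressed (459 to 506 TPM in sum), but 8 of the 13 also belong to a programme list, and 4 of the 8 expressed do not. SMTN, smoothelin, had 227 ± 9.73 TPM, and ACTG2, the gamma actin of visceral smooth muscle, had 147 ± 7.33.

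Muscle had 1 of 20 markers (23.8 to 32.5 TPM in sum): NKX2-5, the cardiac homeobox factor (chr5:173232109-173235357, minus strand), at 28.1, 29.6, 23.1 and 23.2 TPM, on 214 to 313 estimated counts. MYOD1, MYOG, MYH7 and TNNI3 were at 0, and MYH3 had 0.476 ± 0.345 TPM. The full-length NKX2-5-201 held 58.2% ± 3.26 of NKX2-5. Neurons had 4 of 17 (359 to 388 TPM in sum). TUBB3, a beta tubulin, had 349, 319, 336 and 313 TPM, and NEFM, a neurofilament chain, had 19.2, 21.0, 38.9 and 39.8 TPM, higher with guide 2. ELAVL3 and ELAVL4 were at 0 and STMN2 was at 0.0247 TPM.

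Among cartilage and bone markers 5 of 16 were expressed (94.3 to 110 TPM in sum). SPP1, the secreted phosphoprotein osteopontin that the series also targeted, had 89.5, 66.8, 76.7 and 88.6 TPM, and SOX9, the chondrogenic factor, had 12.7 ± 3.43. Adipocytes had 2 of 11 (14 to 22.8 TPM in sum), FABP4, a fatty acid carrier, at 13.8 ± 3.89 TPM and PPARG, the adipogenic receptor, at 3.61 ± 1.22. A nonsense-mediated decay transcript, FABP4-204, held 74.2% ± 10.9 of FABP4. Hepatocytes had 1 of 14 (8.95 to 12 TPM in sum), AFP, at 10.2, 6.34, 5.81 and 9.91 TPM, but its protein-coding transcripts held 1.64% ± 1.13 of that. SERPINA1, a hepatic antiprotease, had 0.667 ± 0.326 TPM. Glia had 1 of 13 (1.25 to 5.14 TPM in sum), with GFAP at 0.368, 3.20, 0.646 and 3.71 TPM, high in both replicate 2 libraries, and MBP at 0.418. GFAP rested on 7.2 to 12.9 estimated counts per library, a narrower range than that of its TPM, so its level is uncertain. Pancreas and gut had 1 of 13 (1.54 to 3.84 TPM in sum), LGR5 at 2.17 ± 1.01 TPM with INS and SST at 0. Germ cells had 2 of 12 (2.28 to 4.51 TPM in sum), SYCP1 at 1.25 ± 0.501 and NANOS3 at 1.06 ± 0.722 TPM, with DDX4 at 0. SYCP1 rested on only 1.2 to 3.3 and NANOS3 on 1.0 to 4.0 estimated counts per library, close to the detection limit. For the list genes at 0, a count of 0 allows between 0.0241 and 1.65 TPM, depending on length and library. Whether other cells contributed to these levels was not tested.

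**Figure D4:**
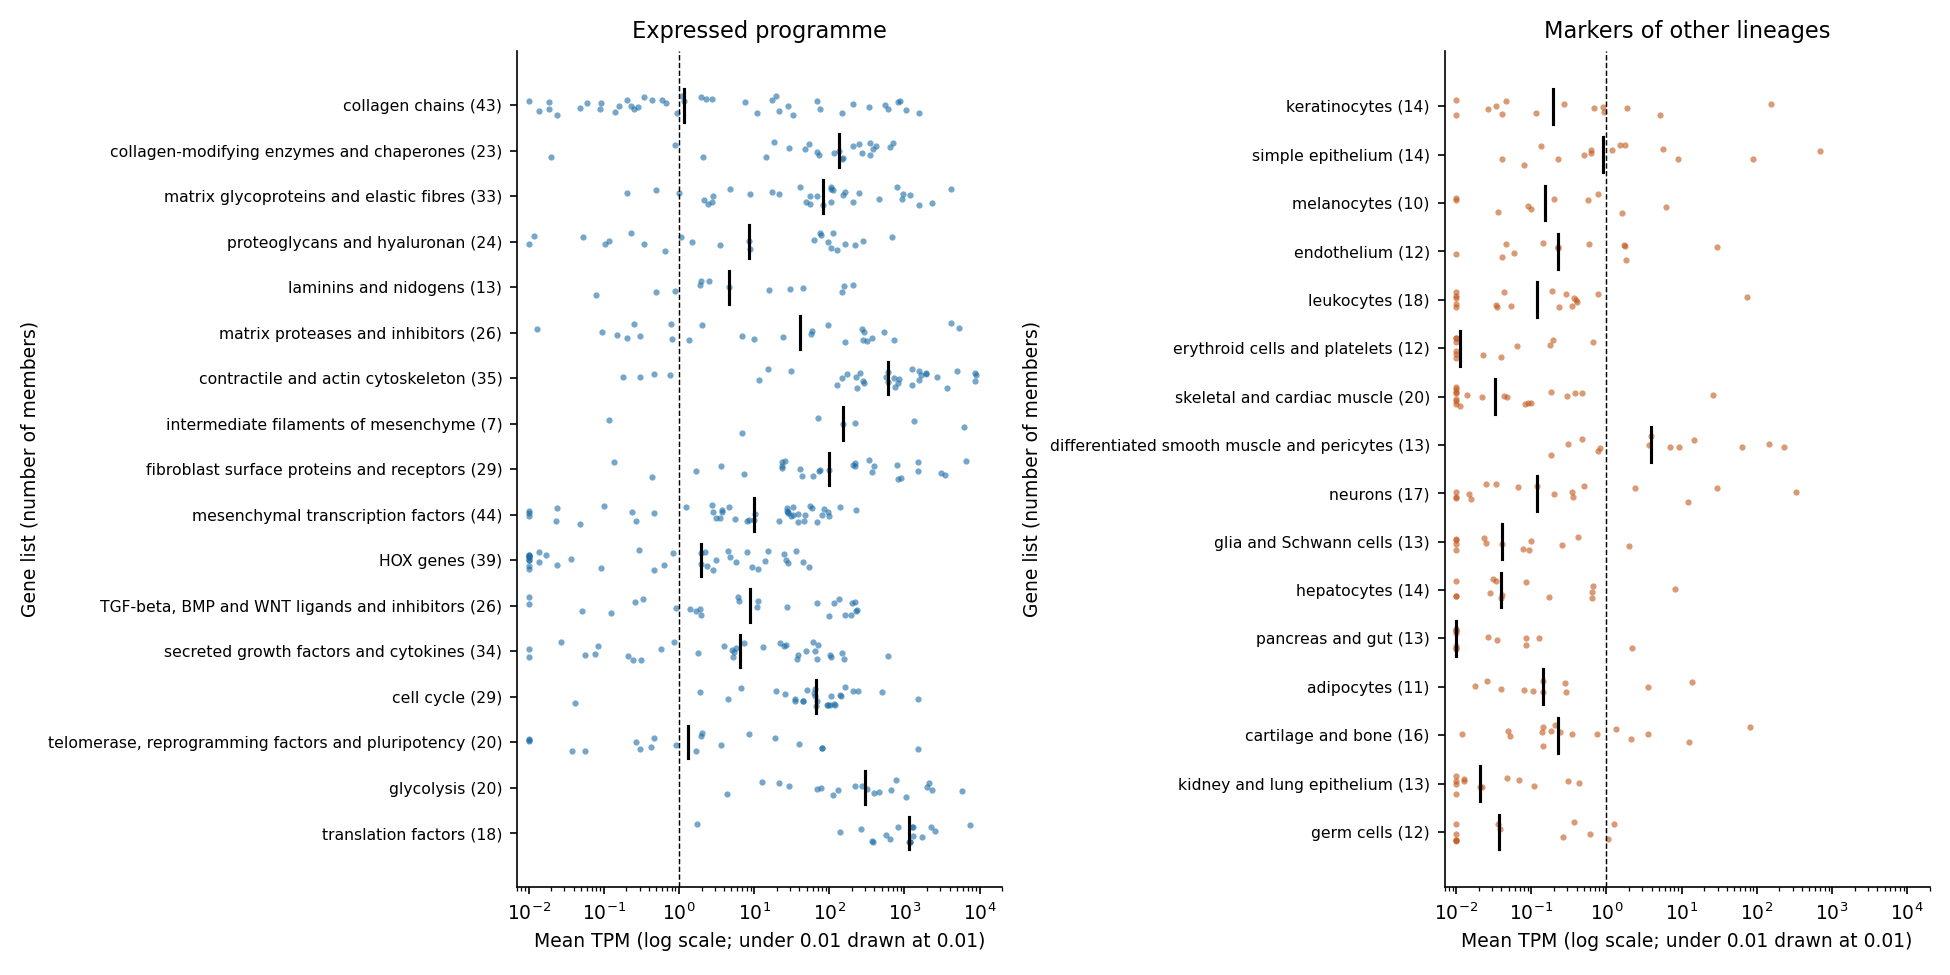
Mean TPM (log scale) over 4 control libraries of every member of the 17 programme lists (blue) and the 16 lists for other lineages (orange), with a black bar at each list's median and the 1 TPM threshold dashed. Medians of the programme lists lie above 1 TPM, and those of the other lineages lie below it except for differentiated smooth muscle and pericytes.

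Leading transcripts were taken for 8024 genes at 10 TPM or more with at least 2 annotated transcripts. The leading transcript held a median of 56.0% of its gene. In 865 genes (10.8%) it held 90% or more, in 3330 (41.5%) less than 50%, and in 6271 (78.2%) it was the same transcript in all 4 libraries. The first count was 1674 over protein-coding transcripts alone and 1900 by shares of estimated counts. The median share was 82.3% in genes with 2 to 4 annotated transcripts and 32.8% in those with 20 or more. Protein-coding transcripts held 84.4% ± 0.237 of the TPM of protein-coding genes, retained introns 6.48% ± 0.129, processed transcripts 4.85% ± 0.0818 and targets of nonsense-mediated decay 4.21% ± 0.113.

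A single transcript held nearly all of some genes that have several. VIM-201 held 98.1% ± 0.196 of VIM, TGFBI-201 held 95% ± 1.04 of TGFBI, NEFM-201 held 98.9% ± 2.17 of NEFM and TUBB3-201 held 96% ± 2.41 of TUBB3. CDKN1A-201 held 89.6% ± 0.728 of CDKN1A, just under the 90% mark. COL1A1-201, which encodes the whole chain, held 64.2% ± 1.39 of COL1A1, and the retained-intron transcript COL1A1-205 held 24.9% ± 2.14. In SPARC a retained-intron transcript, SPARC-202, led with 38.8% ± 0.831, and in LMNA a processed transcript of 285 bases, LMNA-214, led with 29.7% ± 1.25. Protein-coding transcripts together held 60.7% of SPARC and 67.7% of LMNA. CD44-201, the standard form without variable exons, led CD44 with 31.2% ± 2.05. In TERT, TERT-202 held 43.7% ± 1.92 and TERT-201 held 37.2% ± 0.788. TERT-202 has 3207 coding bases within 3210 in all, and TERT-201 has 3396 within 4018. The exon that TERT-202 lacks, exon 11 of TERT-201, was carried by 46.0% ± 1.06 of the TERT TPM that spans it. Counts from a transgene and from the genomic locus cannot be told apart here either. Whether the shares of TERT-202 and TERT-201 reflect splicing or the different lengths of these 2 transcripts was not tested.

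Inclusion of known alternative exons was computed as the TPM of transcripts that contain the exon over the TPM of all transcripts that span it. These exons were chosen after transcript levels had been seen. Pyruvate kinase has a pair of mutually exclusive exons, 9 for the M1 form of muscle and 10 for the M2 form of dividing cells. They are shown because they decide which enzyme is made. They were read from the GENCODE 29 transcripts on GRCh38, minus strand, at chr15:72203022-72203188 and chr15:72202454-72202620, and capitals mark the 62 of 167 bases at which they differ (62.9% the same).
PKM exon 9: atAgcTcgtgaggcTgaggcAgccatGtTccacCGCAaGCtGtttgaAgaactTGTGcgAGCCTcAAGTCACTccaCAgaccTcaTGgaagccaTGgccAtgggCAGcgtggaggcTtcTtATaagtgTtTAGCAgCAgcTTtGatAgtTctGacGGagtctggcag
PKM exon 10: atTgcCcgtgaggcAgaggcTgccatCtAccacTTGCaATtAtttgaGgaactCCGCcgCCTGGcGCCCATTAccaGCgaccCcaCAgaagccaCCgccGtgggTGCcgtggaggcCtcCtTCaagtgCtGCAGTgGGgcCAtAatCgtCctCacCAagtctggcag
Exon 10 was included in 91.9, 92.6, 91.5 and 92.6% of the PKM TPM that spans it, and exon 9 in 6.98, 6.30, 7.26 and 6.35%. The values of the pair did not overlap in any library, and PKM-202, the M2 transcript, held 71.8% ± 2.52 of the gene. PTBP1, an RNA-binding protein known to repress exon 9, had 433 ± 44.8 TPM.

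Fibronectin has the alternative exons EDB and EDA, each a whole type III repeat, which plasma fibronectin from the liver lacks. Both lie in the coding sequence on the minus strand of chromosome 2, EDB at chr2:215392931-215393203 (273 bases) and EDA at chr2:215380811-215381080 (270 bases). They are shown as the parts that distinguish cellular fibronectin.
FN1 EDB exon: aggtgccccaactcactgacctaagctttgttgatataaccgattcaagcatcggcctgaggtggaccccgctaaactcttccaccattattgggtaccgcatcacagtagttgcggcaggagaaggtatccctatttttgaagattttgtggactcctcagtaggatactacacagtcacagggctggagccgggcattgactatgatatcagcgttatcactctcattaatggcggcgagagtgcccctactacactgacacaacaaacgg
FN1 EDA exon: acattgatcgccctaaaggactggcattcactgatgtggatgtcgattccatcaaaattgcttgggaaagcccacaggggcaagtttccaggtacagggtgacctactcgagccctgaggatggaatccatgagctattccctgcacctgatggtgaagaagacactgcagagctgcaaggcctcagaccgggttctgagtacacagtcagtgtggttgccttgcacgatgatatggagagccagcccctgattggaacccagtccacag
EDA was included in 67.2, 66.4, 66.4 and 67.2% of the FN1 TPM that spans it, and EDB in 32.3, 33.2, 32.5 and 30.9%. EDA inclusion was above EDB inclusion in every library. FN1-212, which has EDA, was the leading transcript with 35.0% ± 1.49.

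Tropomyosin 1 carries a pair of mutually exclusive exons of 76 bases in its coding sequence, at chr15:63061198-63061273 and chr15:63061713-63061788 on the plus strand. They are shown because the levels of TPM1 and its relative TPM2 leaned to the same exon of the pair. Capitals mark the 33 bases at which the pair differ (56.6% the same).
TPM1 upstream 76-base exon: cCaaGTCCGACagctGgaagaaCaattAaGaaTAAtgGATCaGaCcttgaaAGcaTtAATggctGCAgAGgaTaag
TPM1 downstream 76-base exon: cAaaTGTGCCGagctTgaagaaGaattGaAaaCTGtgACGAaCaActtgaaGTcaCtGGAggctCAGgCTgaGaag
The upstream exon was included in 74.6, 77.8, 74.1 and 74.8% of the TPM1 TPM that spans it, and the corresponding exon of TPM2 in 80.3, 81.0, 81.7 and 82.5%. The downstream exons had 25.8% ± 1.97 and 18.6% ± 0.938. In both genes the upstream exon was ahead in every library.

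Other exons ranged widely. SLC25A3, the mitochondrial phosphate carrier, used exon 3B in 99.0% ± 0.675 and the heart and muscle exon 3A in 0.908% ± 0.671. The GAG-alpha exon of VCAN, versican, which carries glycosaminoglycan chains, was included in 44.5% ± 2.33 and the 24-base exon of FLNA, filamin A, in 78.1% ± 1.15. The 42-base exon of SPP1 was included in 81.2% ± 4.0, and exon 3 of COL6A3 in 3.37% ± 0.280. The 18-base exon of CTNND1, p120 catenin, had 30.8 and 30.8% with guide 1 and 22.1 and 20.4% with guide 2. The 63-base exon of ENAH, an actin regulator, had 42.6% ± 2.66, but 13.2% ± 0.619 over protein-coding transcripts alone, since the other transcript with it is annotated as a retained intron. In KDM1A, the histone demethylase LSD1, the 60-base and 12-base exons shared 1 transcript, KDM1A-202, and had 41.1% ± 1.74 each. Leaving out noncoding transcripts moved the mean inclusion of the other exons by less than 3 percentage points.

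**Figure D5:**
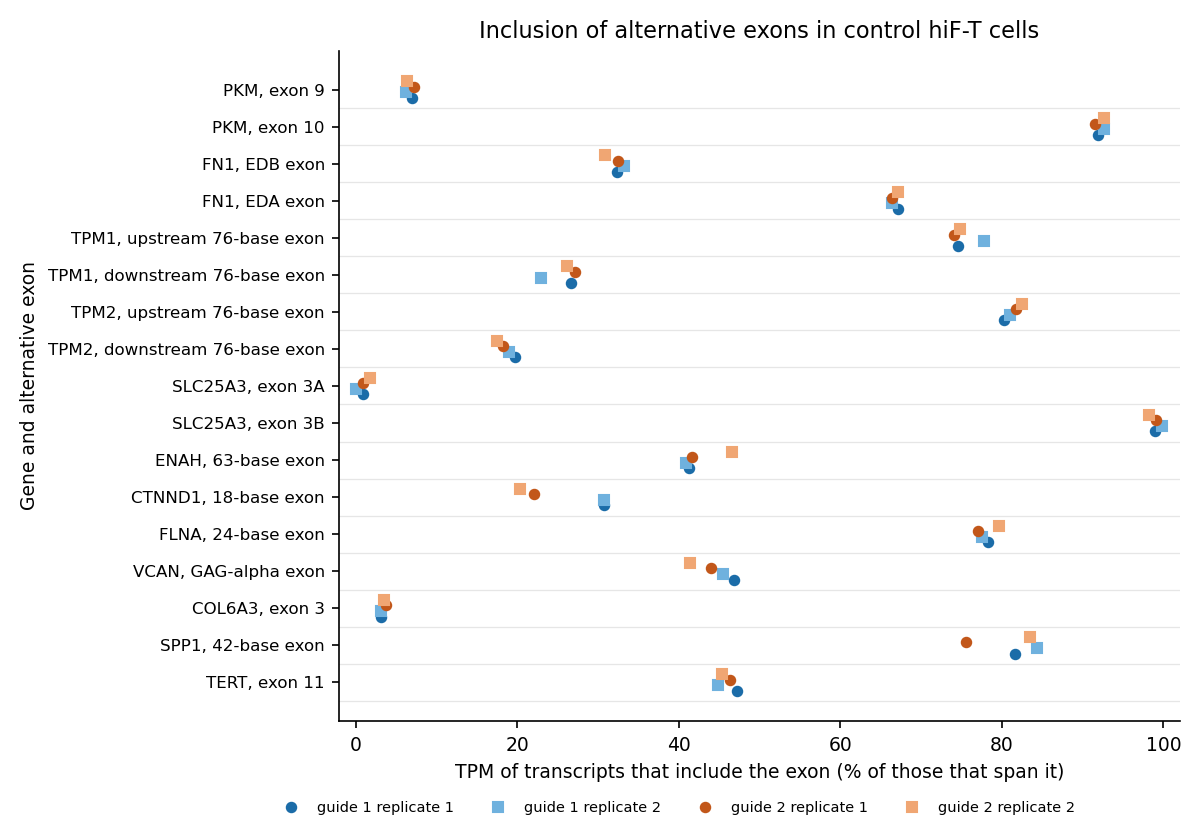
Inclusion of 17 alternative exons in each control library, in percent of the TPM of transcripts that span the exon. PKM exon 10 and SLC25A3 exon 3B lie above 90%, their partners below 10%, and CTNND1 is the exon whose 2 guides stand farthest apart. For TERT, transgene and genomic locus cannot be told apart.

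Promoters of the contractile genes were compared with all promoters for 3 sequence motifs, within 250 bases before and 50 after the start, in the RefSeq table on GRCh38.p14. A promoter was matched for 25 of the 28 contractile genes at 100 TPM or more. The CArG box, which serum response factor binds, was found in 5 of the 25, against 1.29% of all 35116 promoters of this length, 1.06% of those of expressed protein-coding genes and 2.44% of 41 matrix promoters. The 5 were ACTG1, ACTG2, CNN2, FLNA and TPM4. TATAAA, on either strand, was in 1 of the 25 contractile promoters (4.0%), 11.5% of all and 5.23% of those of expressed protein-coding genes. The AP-1 site TGAGTCA, on either strand, was in 1 of the 25 (4.0%), 4.95% of all and 2.96% of those of expressed protein-coding genes. No matches of different motifs overlapped in these promoters of contractile genes. The promoters of ACTG1 and ACTG2 are shown because ACTG1 is, with ACTB, among the 3 highest genes and ACTG2 has a pair of boxes. Each is the 200 bases before the start, with CArG boxes in capitals, at chr17:81512800-81512999 (minus strand) and chr2:73892808-73893007 (plus strand).
ACTG1 promoter: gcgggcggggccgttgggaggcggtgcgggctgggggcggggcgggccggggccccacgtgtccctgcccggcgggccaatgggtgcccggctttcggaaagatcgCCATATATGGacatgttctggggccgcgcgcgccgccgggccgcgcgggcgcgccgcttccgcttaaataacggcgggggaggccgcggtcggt
ACTG2 promoter: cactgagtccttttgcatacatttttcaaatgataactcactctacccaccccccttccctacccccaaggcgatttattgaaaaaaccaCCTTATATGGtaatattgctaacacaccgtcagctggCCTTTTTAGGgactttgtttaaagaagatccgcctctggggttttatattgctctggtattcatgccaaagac
The box of ACTG1 begins 94 bases before the start, and those of ACTG2 begin 110 and 73 bases before it. A match is a description of the letters and not of binding.

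The 4 libraries differed little for most genes. The median coefficient of variation was 8.87% over 8462 genes at 10 TPM or more, 22.7% for genes from 1 to 10 TPM and 6.54% for genes from 100 to 1000 TPM. It exceeded 50% in 48 genes at 10 TPM or more, 18 of them protein-coding. The 10 most variable were all pseudogenes, such as RNA5SP389 at 0, 103, 0 and 23.1 TPM and AC211486.4 at 62.7, 0, 6.49 and 0 TPM. RNA5SP389 rested on 0 to 16.7 and AC211486.4 on 0 to 9.9 estimated counts per library. Pseudogenes share reads with their parents, and the way reads were divided is uncertain there.

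Some programme genes were ordered by guide, but the libraries of guide 1 also differed from each other. A chi-square of counts per gene, larger where a pair of libraries differs more, was 9.80 between them. It was 8.01 to 9.81 between libraries of different guides and 3.14 between those of guide 2. At any fold, the guides did not overlap in 3228 of 8462 genes at 10 TPM or more (38.1%). Genes were counted where both libraries of a guide lay above both of the other and the means differed by at least 1.5 times. Of 278 programme genes at 10 TPM or more, 5 (1.80%) were higher with guide 1, where 0.815% of all 8462 genes were, and 4 (1.44%) were higher with guide 2, where 0.485% were. Those higher with guide 1 were DKK1, COL7A1, MEOX2, S100A4 and TCF4. Those higher with guide 2 were ACTA2, SNAI2, COL11A1 and COL18A1. SNAI2, the EMT factor SLUG, had 53.6, 55.1, 84.9 and 85.3 TPM. COL18A1 had 20.2, 9.17, 28.8 and 26.7 TPM and TCF4 had 42.6, 34.5, 29.8 and 17.1 TPM, so both also varied within a guide. With 2 libraries per guide, no test was made.

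The markers were also read in the 14 knockdown libraries, as a description. COL1A1 lay between 1126 and 1880 TPM there and VIM between 5513 and 6486, and the range of each knockdown group overlapped that of the controls. TAGLN had 1563 to 1632 TPM in CDKN1A knockdown, below its control range of 1714 to 2093, while KDM1A knockdown (1483 to 2167) and SPP1 knockdown (1263 to 2025) overlapped it. Of 12943 expressed genes, 4.16% lay below the controls in every CDKN1A knockdown library. MMP1 had 7408 to 9446 TPM in CDKN1A knockdown and 7745 to 9622 in SPP1 knockdown, above its control range of 4884 to 5980, and 5059 to 10265 in KDM1A knockdown, which overlapped it. Every library lay above the controls for 5.47% of expressed genes in CDKN1A knockdown and for 2.03% in SPP1 knockdown. LUM and COL3A1, at most 2.05 and 3.41 TPM in control, had 15.3 to 27.7 and 8.65 to 21.3 TPM in the 4 KDM1A knockdown libraries, where 6.08% of expressed genes lay above the controls throughout. None of these differences was tested here.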

How the data were processed

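Polyadenylated RNA of each library was sequenced, and the authors deposited 1 table of transcripts per library with estimated counts and TPM, per the file headers. The tables were made with kallisto on human GRCh38 (hg38), per the submitters' processing notes, and the version and settings of the tool and the release of its transcripts are not stated there. Deposited TPM and estimated counts were used unchanged and summed per gene by Ensembl transcript ID over GENCODE 29, which held 169797 of 188753 transcripts (90.0%). The other 18956 transcripts held 2.87% of TPM. Of 683 list symbols, 1 was not matched. kallisto divides reads that fit several transcripts by likelihood, so shares among similar transcripts and paralogues are estimates.

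Means and SDs over the 4 control libraries, counts past a threshold, transcript shares and exon inclusion were computed with Python 3.11.15, pandas 2.3.3 and numpy 2.4.6, and figures drawn with matplotlib 3.10.9. The TMM scaling tried as an alternative came from edgeR 4.0.16 (R 4.3.3). No test between groups was made. Where nothing says that replicates were separate cultures, SDs measure the spread between these libraries, which may be technical. The summing and transcript-share steps were tested on simulated data. Counts were drawn there for each transcript, so the division of reads among similar transcripts was not tested. No pair of control libraries agreed within sampling noise, so each was counted once. Limits for values of 0 rest on 3 counts over the longest transcript and cover counting error only. At 13389477 to 15694395 estimated counts per library, genes from 1 to 10 TPM had a median coefficient of variation of 22.7%.

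Named genes were the 30 nuclear genes of highest mean TPM, the 5 highest members of each programme list, the fibroblast markers, HOX and telomerase or pluripotency genes at 1 TPM or more, the 2 highest members of each other lineage list, a panel of genes for transcripts, and the 10 most variable genes at 10 TPM or more. The lists, the panel and this rule were chosen with earlier results of these data known. Exons, promoters, the split by guide and the knockdown ranges were chosen after values had been seen. Alternatives covered thresholds, shares of estimated counts, nuclear genes only, protein-coding transcripts only and each library left out.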

Additional observations from a re-analysis of the deposited data

Results flagged for a closer look

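Of 229 control values checked, 16 had 1 library standing apart, with a gap to the nearest of the others above Dixon's 95% limit for 4 values. Chance alone marks about 1 in 20 such groups. Where all values but 1 are 0, as for GCG, the limit is always passed, so that case carries no information. The library was guide 1 replicate 1 in 8 cases, guide 1 replicate 2 in 5, guide 2 replicate 2 in 2 and guide 2 replicate 1 in 1.

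Guide 1 replicate 1 was the high library for RPL13, a ribosomal protein (2712 TPM, others 2250 to 2291), and for TPM3, a tropomyosin (901 TPM, others 774 to 789). It was also high for GCG, glucagon (0.510 TPM, others 0), on at most 2.0 estimated counts. The same held for the pseudogene AC211486.4 (62.7 TPM, others 0 to 6.49), on at most 9.9 estimated counts. It was the high library in no other flagged case. It was the low library for CALD1, caldesmon (555 TPM, others 619 to 629), FGFR1, a fibroblast growth factor receptor (63 TPM, others 74.5 to 75.7), HOXD10 (42.6 TPM, others 44.8 to 45.3) and the summed mitochondrial mRNAs (43538 TPM, others 55320 to 57286).

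Guide 1 replicate 2 was high for SERPINE2 (761 TPM, others 700 to 709), HOXA7 (13.1 TPM, others 7.76 to 8.37), HOXA3 (9.27 TPM, others 7.58 to 7.84), the summed growth factors and cytokines (1723 TPM, others 1599 to 1613) and the summed endothelial markers (41.3 TPM, others 34.1 to 34.9). Guide 2 replicate 2 was high for TERF1 (25.1 TPM, others 16 to 17.1) and YAP1 (90 TPM, others 82.4 to 83.1). Guide 2 replicate 1 was low for EDN1 (95.1 TPM, others all 107).

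Signal also lay outside the genes described. Transcripts with no gene in GENCODE 29 held 2.87% of TPM on average, 33 of them reached 100 TPM, and the highest stood at 2464 ± 243 TPM.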

How the results depend on the processing

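Of 468 values recomputed under alternative settings, 18 summary values and 63 values of single lists or genes moved by more than 1 SD between libraries or, for counts, by more than 1.5 times. Shares of estimated counts turned the order of contractile and matrix genes. With each library left out in turn, expressed genes numbered 12870 to 13006, programme members 353 to 356 and other-lineage members 42 to 43, while the germ cell list had 1 expressed member in place of 2 without guide 1 replicate 1 or guide 1 replicate 2. Thresholds of 0.5 and 5 TPM gave 14518 and 10026 expressed genes. At 5 TPM 23 other-lineage genes remained above the threshold, where 42 did at 1 TPM, and protein-coding transcripts alone, a setting chosen after seeing the data, gave 31 of them and 345 programme genes. Shares by estimated counts, not per length, were 8.05% for the top 10 genes, 23.2% for the top 100, 55.8% for the top 1000, 4.74% for contractile, 8.42% for matrix, 3.75% for ribosomal protein and 2.14% for mitochondrial genes. Among nuclear genes alone the top 10 held 7.38%, the top 100 27.2%, contractile genes 6.09%, matrix genes 4.38% and ribosomal proteins 13.4%. Genes led by 1 transcript at 90% or more numbered 465 at 50 TPM or more, 1674 over protein-coding transcripts, 1900 by shares of estimated counts and 2088 at a share of 75%, and 2715 genes had the same leader in every library at 50 TPM or more. The cause of these moves was not tested. No paired analysis was possible because no result came from a test between groups.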
